A study of Gallus gallus with 8 samples.

Results

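In the breast muscle of 8 broiler chickens, 176 genes were measured as 2 or more transcripts. They were found in the deposited comparison of transcripts by removing the number that ends each transcript name and keeping every name left on at least 2 transcripts. This gave 176 of 7517 gene names (2.34%) and 361 of 8158 transcripts. Of these genes, 167 had 2 transcripts and 9 had 3, and 456 further transcripts had no name and could not be grouped. The quantity described is the share of each transcript in the summed counts of its gene in a bird, not the level of the gene. The transcript with the largest mean share over the 8 birds is called the main transcript.

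The birds were females of the Hubbard Flex strain, a meat-type broiler, sampled from the pectoralis muscle at 6 weeks of age. The labels put 4 birds in a high shear force and 4 in a low shear force group, called high-force and low-force birds below, shear force being what it takes to cut the meat. No treatment is named, and the labels give separate birds but not how they were housed or related. The deposited tables hold a total of 5564905 to 7322205 counts per bird.

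A gene can give several transcripts by starting at different promoters, by joining different exons or by ending at different sites, and the proteins made from them can differ. Skeletal muscle is known for extensive use of this. Troponin T, tropomyosin, myosin light chain and pyruvate kinase genes make different forms in different fibre types and at different ages, and proteins such as the muscleblind and RBM families steer the choice of exons.

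A shared name did not always mean a shared locus. In 119 genes the transcripts came from the same Ensembl gene, and in 2 from overlapping loci. In 23 genes they lay at separate loci on the same chromosome and in 32 on different chromosomes, and for these 55 genes the share compares annotated copies or gene fragments that carry the same name. In the genes of 1 locus, 98.4% of the values were not whole numbers, against 40.1% in the genes with loci apart and 10.1% in names with a single transcript. A fractional value shows that reads compatible with several transcripts were divided between them by estimation, so the shares in genes of 1 locus rest on that division. Transcript lengths are not used here, so the shares are shares of reads and not of molecules. The listed transcripts held at least 99% of the counts of their Ensembl genes in 168 genes and under 90% in 4, with the lowest value of 76.0% in MBNL2.

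Low-force birds 1 and 3 stood apart before any comparison between the groups. The first principal component was taken on log2 ratios of the main share to the rest, with each gene scaled to the same variance. It held 37.5% of that variance. Low-force birds 1 and 3 scored 11.2 and 15.2, and low-force birds 2 and 4 scored -2.11 and -5.58. High-force birds 1 to 4 scored -2.73, -5.74, -0.636 and -9.60, so birds 1 and 3 scored above birds 2 and 4 in both groups. In 63 of 175 genes (36%) low-force birds 1 and 3 held the lowest pair or the highest pair of main shares, the lowest pair in 45 and the highest in 18. The next pair of birds did so in 26 genes, and the median over all 28 pairs of birds was 10 genes. Their mitochondrial genes took 8.45% and 6.30% of the counts, the lowest values of the 8 birds, against 13.9% and 15.2% in low-force birds 4 and 2 and 9.87% to 12.0% in high-force birds. The part of this difference in the shares was not tested. Values are given below with and without these birds where a result rests on them.

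**Figure D1:**
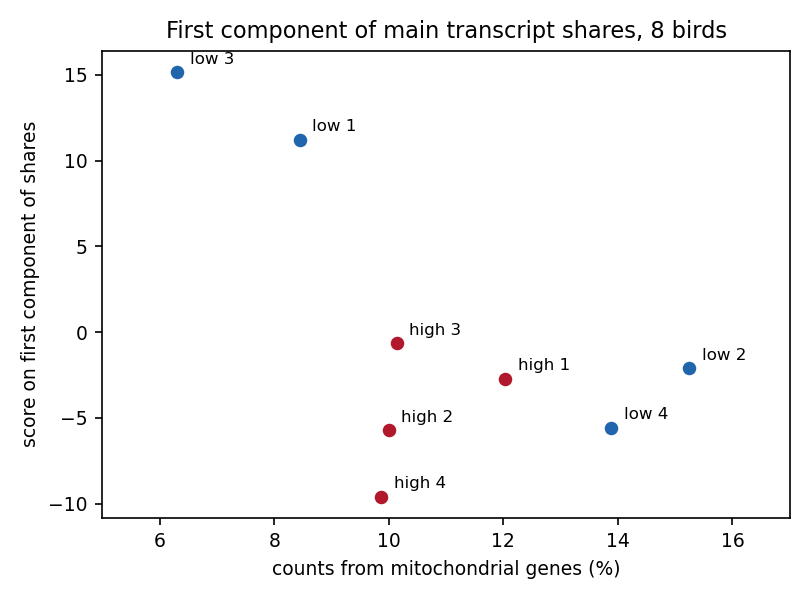
First principal component of the main transcript shares (vertical axis, score without unit) against the share of counts from mitochondrial genes (horizontal axis, %) in the 8 birds, high shear force in red and low in blue. Shares entered as log2 ratios of the main share to the rest, with each gene scaled to the same variance. Low-force birds 3 and 1 lie at the top left, with scores of 15.2 and 11.2 and mitochondrial shares of 6.30% and 8.45%.

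Most of the genes had a clear main transcript, but seldom an exclusive one. The median main share was 71.0%, between 41.1% and 97.4%. It was 90% or more in 19 genes, between 60% and 90% in 115 and under 60% in 42. The median was 71.2% in the genes of 1 locus or overlapping loci and 71.0% in those with loci apart. The first number in a transcript name did not mark the main one: of 113 genes of 1 locus with 2 transcripts and no tie, the main transcript was numbered 201 in 50, 202 in 59, 203 in 2 and 204 in 2. Genes of 1 locus spanned a median of 26.6 kb, against 15.1 kb for 7341 names with a single transcript.

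The shares differed between birds by more than counting alone. The median distance between the lowest and highest main share of a gene was 18.3 percentage points; it was under 5 points in 9 genes and 20 points or more in 81. The SD of birds within their groups was a median of 2.85 times the SD that binomial counting would give, which leaves out the error of dividing reads between transcripts. The same transcript led in all 8 birds in 123 genes, and another led in at least 1 bird in 52. In the remaining gene, TGFBR2, a receptor for transforming growth factor beta, the estimated counts of both transcripts were equal in every bird, so that neither led. It was described but not tested. Depth moved with the spread: the median distance was 25.8 points in the 59 genes with the fewest counts, 16.8 in the middle 57 and 10.6 in the 59 with the most, and 32, 10 and 10 of them had another leading transcript in at least 1 bird.

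**Figure D2:**
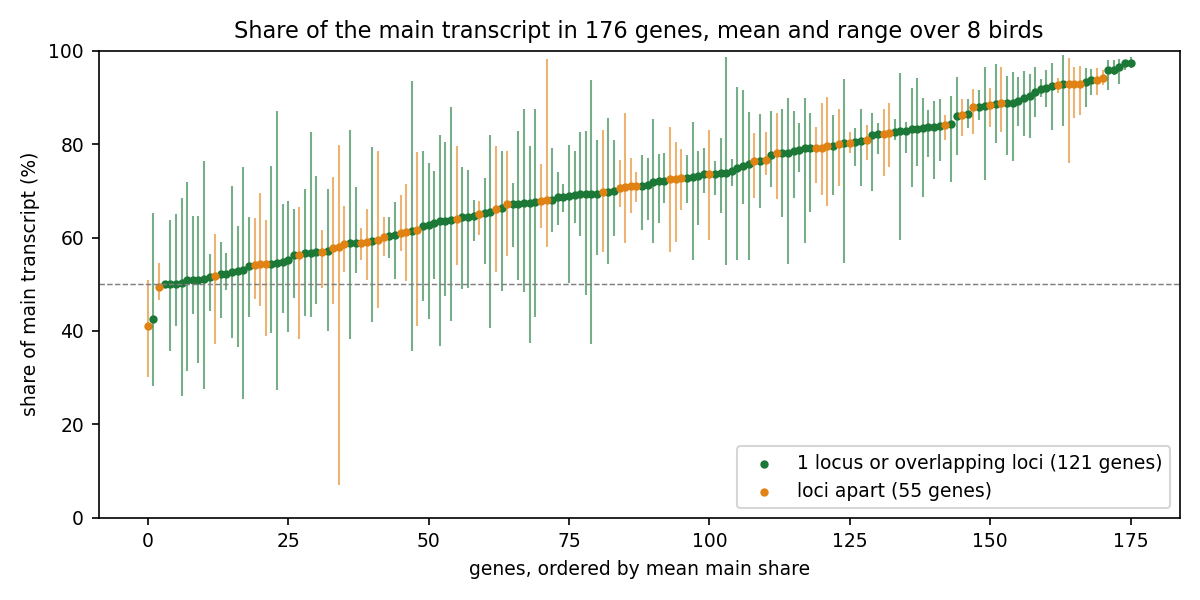
Mean share of the main transcript over 8 birds (points, % of the gene's summed counts) and its lowest and highest value (lines) in the 176 genes, ordered by mean share; green marks genes of 1 locus or overlapping loci and orange genes with loci apart. The means run from 41.1% to 97.4%, and the lines are longest in the genes with mixed use.

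The transcripts of the thin and thick filaments and of glycolysis carried most of the counts. TNNT3, MYL1, TPM1 and PKM together held 70.3% of the counts of all 176 genes, which themselves held 11.9% of all counts. In each of these 4 genes the same transcript led in all birds, and the group means differed by at most 2.93 percentage points.

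TNNT3, fast skeletal troponin T, which ties the calcium-sensing troponin complex to the thin filament, lies on chromosome 5 at 13389730 to 13416288 (galGal4, the chicken build named in the submitters' processing notes). TNNT3-202 held 71.0%, 73.8%, 73.9% and 74.7% of its counts in high-force birds 1 to 4 and 73.5%, 75.5%, 76.8% and 75.6% in low-force birds 1 to 4. The groups overlapped, at 73.4% ± 1.64 (SD, n = 4) and 75.3% ± 1.38 (SD, n = 4), with TNNT3-201 taking the rest. MYL1 encodes the essential light chains of fast myosin, which are known to come from separate promoters of the same gene. MYL1-201 held 69.5%, 79.2%, 69.9% and 77.7% in high-force and 69.7%, 75.7%, 69.7% and 77.0% in low-force birds, in the same order of birds. In both groups birds 2 and 4 lay at 75.7% to 79.2% and birds 1 and 3 at 69.5% to 69.9%, so the spread was within the groups and not between them. Low-force birds 1 and 3 thus had shares close to those of high-force birds 1 and 3. Leaving out only the low pair sets high-force birds 1 to 4 against low-force birds 2 and 4. The difference in group means then went from 1.03 to -2.30 points.

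TPM1 encodes alpha tropomyosin, the coiled rod that covers the myosin sites on actin, and was measured as 3 transcripts on chromosome 10 at 3667602 to 3687521. TPM1-203 held 66.0% ± 2.41 (SD, n = 4) in high-force and 63.1% ± 4.29 (SD, n = 4) in low-force birds, and TPM1-201 held 31.1% ± 3.51 and 35.0% ± 5.24. The lowest TPM1-203 shares, 59.5% and 59.3%, were those of low-force birds 1 and 3; without them the difference between the group means was -0.77 points in place of 2.93. The minor TPM1-202 held 1.90%, 3.61%, 1.80% and 4.11% in high-force and 1.20%, 1.70%, 1.02% and 3.50% in low-force birds. Here too birds 2 and 4 had the larger shares within each group, and the groups overlapped.

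PKM, pyruvate kinase, catalyses the last step of glycolysis, and its known M1 and M2 forms differ by a pair of mutually exclusive exons. PKM-202 held 97.0% ± 0.684 (SD, n = 4) in high-force and 97.8% ± 0.722 (SD, n = 4) in low-force birds. PKM-201 held 2.36%, 3.79%, 2.51% and 3.35% in high-force and 1.70%, 2.83%, 1.41% and 2.74% in low-force birds. All birds thus had a minor share under 4%, and the groups overlapped. Birds 2 and 4 again had the larger minor shares within each group. The PKM-202 difference of -0.83 points was -0.22 without low-force birds 1 and 3. Which PKM transcript encodes which form is not given in the files. PHKB, the beta subunit of phosphorylase kinase, and IDH3A, a subunit of mitochondrial isocitrate dehydrogenase, were the other metabolic members. PHKB-202 held 76.9% and 72.5% in low-force birds 1 and 3 and 83.0% to 89.3% in the other 6 birds. IDH3A-201 held 88.0% to 96.3% over all birds.

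**Figure D3:**
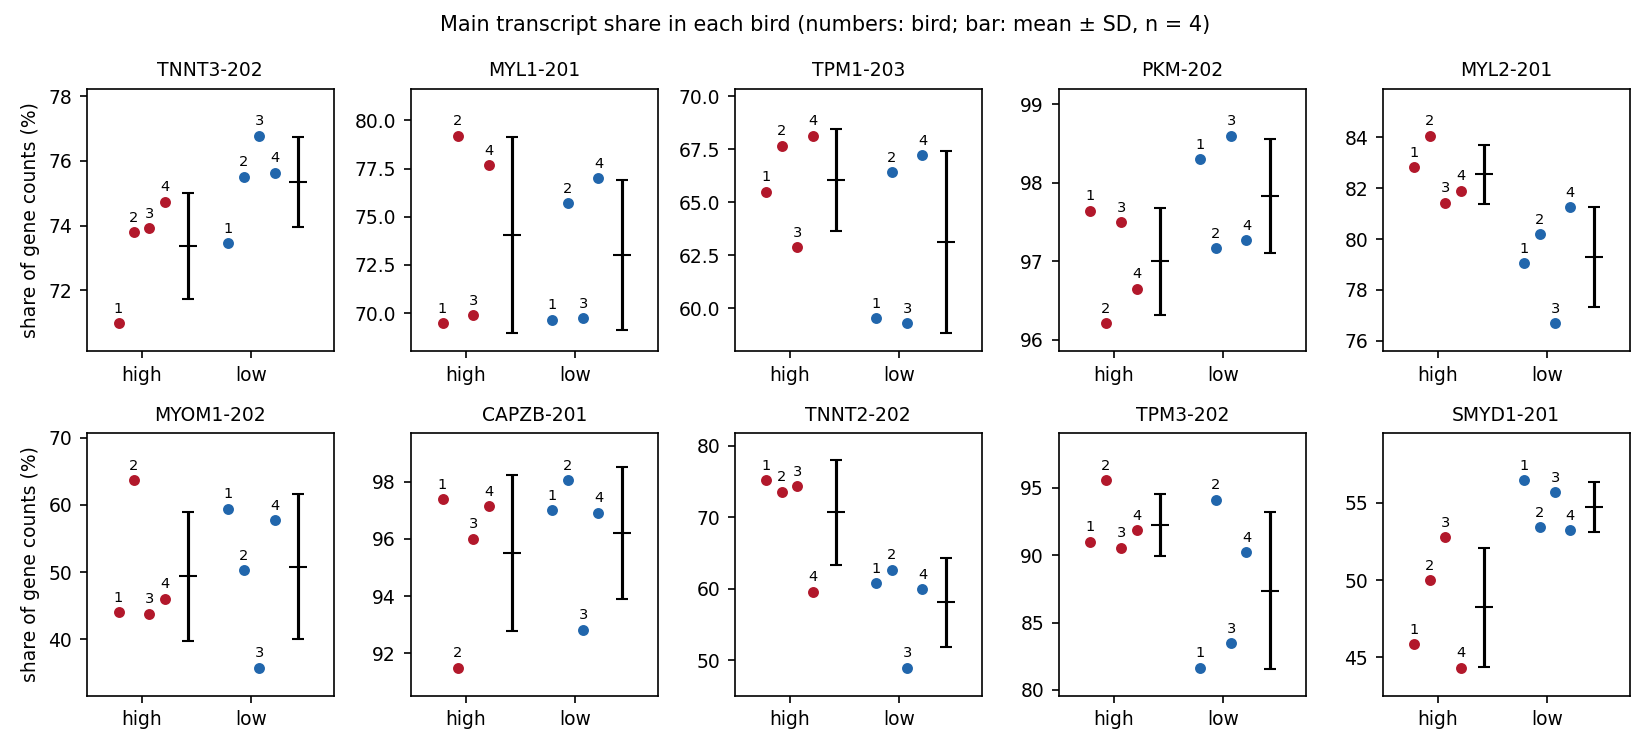
Share of the main transcript (%, each panel with its own axis) in each bird for 9 contractile genes and PKM, with birds numbered within the high-force (red) and low-force (blue) groups and bars for the mean ± SD (n = 4). Only in MYL2 and SMYD1 do the points of the groups not overlap, with MYL2-201 at 81.4% to 84.1% against 76.7% to 81.3% and SMYD1-201 at 44.3% to 52.8% against 53.2% to 56.5%.

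Among the other contractile members the main share ranged from near balance to near exclusion. CAPZB, the beta subunit of the actin capping protein at the Z disc, was read mostly as CAPZB-201, at 91.5% to 98.1%. MYOM1, myomesin, which crosslinks myosin at the M band, was close to balance: MYOM1-202 held 44.0%, 63.7%, 43.8% and 46.0% in high-force and 59.4%, 50.2%, 35.8% and 57.7% in low-force birds. Its leading transcript changed from bird to bird within both groups. SMYD1, a methyltransferase made in striated muscle and needed for myofibril assembly, was also near balance. SMYD1-201 held 45.9%, 50%, 52.8% and 44.3% in high-force and 56.5%, 53.4%, 55.7% and 53.2% in low-force birds. The highest of the high-force birds lay just under the lowest of the low ones, and the group means of 48.3% ± 3.86 and 54.7% ± 1.62 (SD, n = 4) put different transcripts in the lead. SKTMOD, a skeletal tropomodulin that caps thin filaments at their pointed ends, had means of 45.8% ± 12.3 and 56.1% ± 5.70 (SD, n = 4) for SKTMOD-203, and the groups overlapped.

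MYL2-201, the regulatory myosin light chain, was listed at a locus on chromosome 15 and another on chromosome 19, so its share is between loci. The chromosome 15 locus held 82.8%, 84.1%, 81.4% and 81.9% in high-force and 79.1%, 80.2%, 76.7% and 81.3% in low-force birds. The groups were separated by the gap between 81.3% and 81.4%. TNNT2, the cardiac troponin T gene, and TPM3, another tropomyosin gene, have fewer counts and were named after their values were seen. TNNT2-202 held 59.6% to 75.2% in high-force and 48.9% to 62.7% in low-force birds, and TPM3-202 held 81.7% and 83.5% in low-force birds 1 and 3 and 90.2% to 95.6% in the others. The TPM3 difference of 4.87 points was 0.06 without the pair.

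The question set by the design is whether the groups used different transcripts. Transcript use was compared with the gene-level F-test of edgeR's diffSpliceDGE over the 175 genes with unequal transcripts, with Benjamini-Hochberg adjustment. No gene passed an adjusted p of 0.05 (0 of 175 genes tested, 0%), and 23 had an unadjusted p under 0.05 (13.1%). The smallest adjusted p from edgeR was 0.0541, for BCL2L1 and SNX14. The count was 1 with limma's diffSplice, which called BCL2L1, and 1 with DESeq2, which called SNX14. It was 2 when high-force bird 1 was left out, 8 when low-force bird 2 was and 6 when low-force bird 4 was, and 0 when any other bird was; BCL2L1 was among the calls each time. At the level of transcripts, edgeR called 0 of 359 (0%), with 18 at an unadjusted p under 0.05 (5.01%) and a smallest adjusted p of 0.369, where limma called 2 and DESeq2 1. The main shares of the groups did not overlap in 8 of 175 genes (4.57%), with high-force birds above in BCL2L1, SNX14, PSMD12 and MYL2 and below in SMYD1, SRSF3, SLC25A6 and gga-mir-6643. An exact two-sided permutation test over the 70 assignments of birds cannot give less than 0.0286. After adjustment over 175 genes, none could pass unless most of them reached that floor. Its smallest adjusted p was 0.610, and its count of 0 genes called (0%) was thus all but fixed in advance.

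The main share was higher in high-force birds in 100 of the 175 genes, with a median absolute difference of 4.10 percentage points. Without low-force birds 1 and 3 it was higher in 84, the median absolute difference was 2.97 points, and the sign turned in 50 genes. The SD of the main share was larger among the low-force birds in 117 genes and among the high ones in 58, with medians of 6.09 and 4.70 points.

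**Figure D4:**
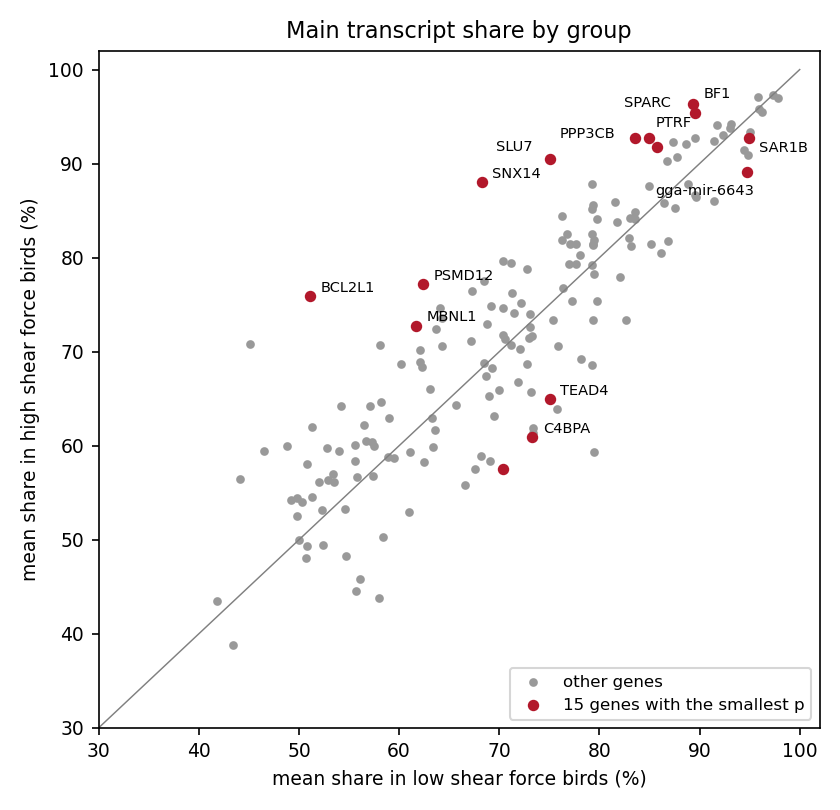
Mean share of the main transcript in the high (vertical axis, %) against the low-force birds (horizontal axis, %), 4 birds each, for the 176 genes, with the line of equality; the 15 genes with the smallest p for transcript use are in red, most of them named, none of which passed the adjusted threshold. Of the 15, 10 lie above the line and 5 below it.

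The 15 genes with the smallest p are described as not passing, with adjusted p of 0.0541 to 0.302 in edgeR. BCL2L1 encodes the apoptosis regulator of the BCL2 family whose known long and short splice forms have opposite effects on cell death in mammals. It lies on chromosome 20 at 10359785 to 10377592. BCL2L1-201 held 64.6%, 79.9%, 82.1% and 77.2% of the counts in high-force and 50.1%, 54.3%, 36.7% and 63.4% in low-force birds. Every high-force bird was above every low one, although high bird 1 and low bird 4 were 64.6% and 63.4%. The means were 75.9% ± 7.80 and 51.1% ± 11.1 (SD, n = 4), and the difference of 24.8 points was 17.1 without low-force birds 1 and 3, with an edgeR adjusted p of 0.646 on the 6 birds left. The level of BCL2L1-201 was 16.1 ± 2.78 CPM in high-force and 6.24 ± 1.37 CPM in low-force birds (SD, n = 4), a log2 difference of 1.37 ± 0.23 (SE). BCL2L1-202 had 5.01 ± 1.19 and 5.90 ± 1.56 CPM, a log2 difference of -0.24 ± 0.28 (SE). Neither level passed the edgeR quasi-likelihood test, with adjusted p of 0.114 and 0.736. Which transcript encodes which form is not given in the files.

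SNX14, a sorting nexin of the endoplasmic reticulum and endosomes, lies on chromosome 3 at 76326433 to 76373661. SNX14-201 held 89.9%, 86.4%, 86.5% and 89.3% in high-force and 58.9%, 75.1%, 54.4% and 84.7% in low-force birds. The high-force birds lay within 4 points of each other, and the low ones spread from 54.4% to 84.7% below them. The means were 88.0% ± 1.86 and 68.3% ± 14.1 (SD, n = 4), and the difference was 19.8 points, and 8.13 without low-force birds 1 and 3. The summed level of the gene was 45.2 ± 8.96 and 44.4 ± 9.73 CPM (SD, n = 4), with SNX14-202 at 5.32 ± 0.445 and 13.8 ± 6.23 CPM.

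Several more of the 15 had their lowest main shares in the same pair of birds. SLU7-201, from the gene of a factor for the second step of splicing, held 59.5% and 68.3% in low-force birds 1 and 3, 88.9% and 83.7% in birds 2 and 4, and 85.1% to 95.2% in high-force birds. PPP3CB-202, from a catalytic subunit of the calcium-activated phosphatase calcineurin, held 78.9% and 72.3% in that pair and 89.0% to 96.5% in the other 6 birds. Its difference of 9.22 points became 1.27 without the pair. PTRF, the caveolar coat protein cavin 1, had means of 92.7% ± 2.30 and 85.0% ± 7.81 (SD, n = 4) for PTRF-201, with 76.5% in low-force bird 3 and 95.4% in bird 4. BF1-201, from a chicken class I histocompatibility gene, held 85.6% and 84.0% in low-force birds 1 and 3 and 89.4% to 99.1% in the others. All 15 differences were smaller without the pair, 9 of them less than 50% of their size, and the smallest adjusted p of the 15 in edgeR was then 0.580. The 15 genes were picked by their p on all 8 birds, and the pair by its place in these same shares. Fewer low-force birds are also left. Smaller differences and larger p were therefore likely from the choice alone, and they are no test of these genes.

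Among the 15, the main share was lower in high-force birds in 5, among them TEAD4, a transcription factor of the Hippo pathway that acts in muscle differentiation, SAR1B, C4BPA and gga-mir-6643. TEAD4-202 held 64.1%, 68.8%, 66.5% and 60.3% in high-force and 80.9%, 79.7%, 74.3% and 65.2% in low-force birds, so that low bird 4 fell inside the range of the high group. Its listed transcripts held 80.8% of the counts of the gene. The transcripts of SAR1B, a GTPase of vesicle coats, and of C4BPA, a complement inhibitor, lay at loci apart. Their main shares were 92.7% ± 1.75 against 94.9% ± 1.83 and 60.9% ± 7.08 against 73.3% ± 5.58 (SD, n = 4), and the groups overlapped in each. PSMD12, a subunit of the regulatory lid of the proteasome, was likewise listed at 2 loci of chromosome 18, and the locus at 7416317 to 7424341 held 67.5% to 83.0% in high-force and 56.9% to 67.0% in low-force birds.

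The name gga-mir-6643 was on 2 overlapping protein-coding loci of chromosome 14, at 13139991 to 13143794 and 13142952 to 13146431, so these values are not measurements of a mature microRNA. The first held 91.4%, 88.6%, 88.0% and 88.6% in high-force and 95.9%, 93.5%, 93.8% and 95.7% in low-force birds. The groups did not overlap, and the difference of -5.59 points was -5.47 without low-force birds 1 and 3. The SD within the groups was 0.963 times that of counting in this gene, the only value under 1 among the 15 genes. Over all 8 birds the SD was 3.25 points, against 1.44 points from counting.

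**Figure D5:**
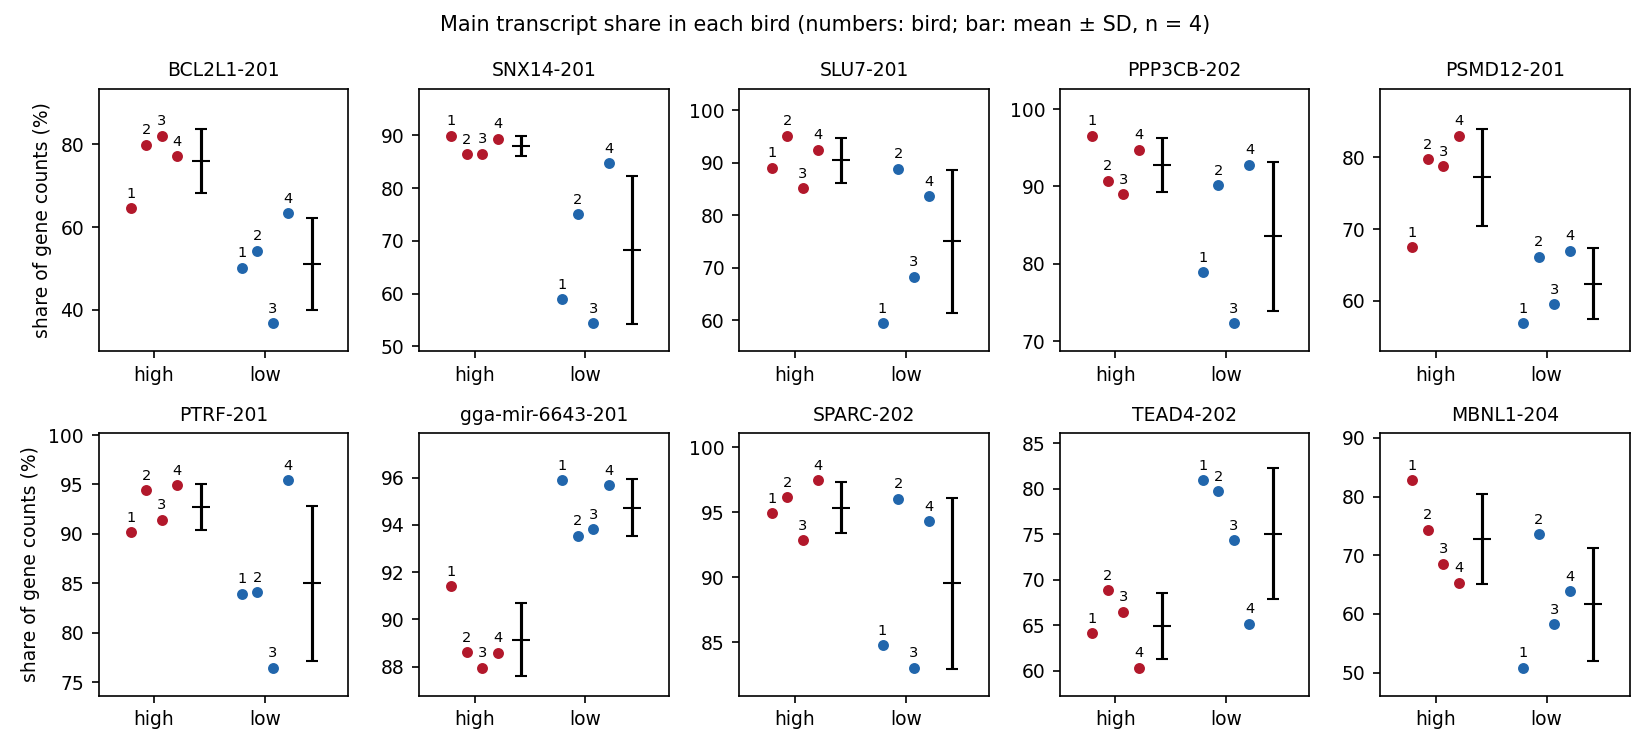
Share of the main transcript (%, each panel with its own axis) in each bird for 10 of the 15 genes with the smallest p, with birds numbered within the high-force (red) and low-force (blue) groups and bars for the mean ± SD (n = 4). Low-force birds 1 and 3 lie lowest in BCL2L1, SNX14, SLU7, PPP3CB, PSMD12, PTRF, SPARC and MBNL1, and not in TEAD4 and gga-mir-6643. The groups do not overlap in BCL2L1, SNX14, PSMD12 and gga-mir-6643.

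The genes include 7 splicing regulators. MBNL1 and MBNL2 are muscleblind proteins, which steer the change from fetal to adult splicing in muscle. MBNL1-204 held 82.8%, 74.4%, 68.6% and 65.4% in high-force and 50.9%, 73.6%, 58.3% and 63.9% in low-force birds. The groups overlapped, and the difference of 11.1 points was 3.99 without low-force birds 1 and 3. MBNL2-204 ran from 38.3% to 80.9% in high-force and from 43.9% to 83.1% in low-force birds, one of the wider ranges, and the listed transcripts of MBNL1 held 87.3% of the counts of the gene. RBM24, a splicing factor of striated muscle, was read almost wholly as RBM24-201, with 97.3% in both groups and an SD of 0.291 and 1.00 points.

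SRSF3 belongs to the serine and arginine rich splicing factors, which are known to regulate their own splicing. SRSF3-202 held 59.5%, 55.6%, 58.8% and 59.1% in high-force and 62.3%, 60.7%, 62.7% and 64.5% in low-force birds. The groups did not overlap, and the difference was -4.31 points and -4.36 without low-force birds 1 and 3. In SRSF3 the SD within the groups was 0.723 times that of counting. Over all 8 birds the SD was 2.77 points, against 2.31 points from counting. Its use did not pass in edgeR, with an adjusted p of 0.607. RBM39-201, at loci apart, had 69.2% ± 9.04 and 78.2% ± 7.44 (SD, n = 4). Over the whole list of splicing regulators, 74 genes were measured, of which 32 had a higher and 42 a lower level in high-force birds, with a median log2 difference of -0.03 against 0.01 over all genes. None passed an adjusted p of 0.05 in edgeR or DESeq2 (1.21% of all genes passed in DESeq2), and 5 had an unadjusted p under 0.05 in edgeR (12.8% of all genes did).

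In the calcium and membrane genes the main share was mostly above 70%. SRL, sarcalumenin, which binds calcium in the sarcoplasmic reticulum, had SRL-201 at 78.1% to 84.7%, and CAMK2G, a calmodulin-dependent kinase, had CAMK2G-202 at 90.5% to 96.1%. CACNA2D1, the alpha-2/delta subunit of voltage-gated calcium channels, had CACNA2D1-201 at 71.1% to 87.6%. ATP1B1, the beta subunit of the sodium pump, had 74.7% ± 5.53 and 64.1% ± 11.9 (SD, n = 4) for ATP1B1-202, where low-force bird 4 at 47.8% was the only bird led by ATP1B1-201. Its difference of 10.6 points was 17.9 without low-force birds 1 and 3. ATP2B1, a plasma membrane calcium pump, had ATP2B1-202 at 91.8% and 92.0% in low-force birds 1 and 3 and at 70.9% to 86.1% in the others. The groups overlapped in all 5 genes. As levels, 13 of the 46 measured genes of this list were higher and 33 lower in high-force birds, with a median log2 difference of -0.18. None passed in edgeR or DESeq2 (0% and 1.21% of all genes did). In edgeR 5, all lower, had an unadjusted p under 0.05, against 12.8% of all genes in either direction and 4.91% lower.

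In SPARC, COL5A2 and LAMC1 of the matrix list, low-force birds 1 and 3 lay apart from all others. SPARC is a secreted collagen-binding glycoprotein, on chromosome 13 at 12238624 to 12247095. SPARC-201 held 5.09%, 3.87%, 7.14% and 2.54% in high-force and 15.2%, 3.98%, 16.9% and 5.70% in low-force birds. Low birds 1 and 3 had more than 2 times the share of any other bird, while low birds 2 and 4 lay inside the range of the high group. The difference in SPARC-202 of 5.80 points was 0.18 without the pair. COL5A2, a chain of collagen V, had COL5A2-202 at 52.1% and 50.2% in the pair and at 66.1% to 79.7% in the others, so its difference turned from 9.29 to -3.84 points. LAMC1, a laminin chain listed at 2 loci, had its main share at 66.8% and 67.6% in the pair and at 75.4% to 90.2% in the others. P4HA1, a subunit of the collagen prolyl hydroxylase, and SDC2, a syndecan, had main shares of 56.3% to 80.8% and 77.2% to 87.3%. The P4HA1 difference of -7.47 points was -11.6 without the pair. As levels, 49 genes of the matrix list were measured, of which 43 were higher and 6 lower in high-force birds, with a median log2 difference of 0.48 against 0.01 over all genes. None of them passed an adjusted p of 0.05 in edgeR, 24 higher and 1 lower had an unadjusted p under 0.05 (7.92% and 4.91% of all genes), and DESeq2 called 9 (1.21% of all genes).

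Markers of other cell types are given beside these genes. None of them passed an adjusted p of 0.05 in edgeR, while DESeq2 called 2 of 7 smooth muscle and pericyte, 2 of 6 adipocyte and 3 of 5 erythrocyte markers, against 1.21% of all genes. Of all genes 50.8% had a higher level in high-force birds. All 11 measured endothelial markers did, with summed levels of 341 to 644 CPM against 284 to 483 CPM, and so did 6 of 7 smooth muscle and pericyte markers, with sums of 1009 to 1323 and 1011 to 1247 CPM. Of the adipocyte markers 5 of 6 were higher, at 286 to 363 against 175 to 337 CPM, and all 5 erythrocyte markers were, at 282 to 899 against 205 to 326 CPM. Leukocyte markers were higher in 5 of 9, at 801 to 1895 against 842 to 1440 CPM. At an unadjusted p under 0.05 in edgeR were 4 endothelial, 5 smooth muscle and pericyte, 2 adipocyte, 3 erythrocyte and 1 leukocyte markers. All of these were higher in high-force birds, against 7.92% of all genes. The median log2 differences of the lists were 0.60, 0.79, 0.46, 1.88 and 0.11 in that order, against 0.01 over all genes. The part of these cells in the transcript shares was not tested, and in bulk muscle fewer cells of a type and less RNA per cell cannot be told apart. The contractile list summed to 159908 to 190211 CPM in high-force and 149406 to 204225 CPM in low-force birds, so contractile genes of skeletal muscle were abundant in every bird. Of its 79 measured genes 34 were higher and 45 lower in high-force birds, with a median log2 difference of -0.12. None passed in edgeR, and DESeq2 called 4 (1.21% of all genes). In edgeR 16 had an unadjusted p under 0.05 (12.8% of all genes), 11 higher and 5 lower (7.92% and 4.91% of all genes). Of the 71 measured genes of energy metabolism 25 had a higher and 46 a lower level, and the median log2 difference was -0.05. None passed in edgeR, and DESeq2 called 1 (1.21% of all genes). In edgeR 3, all lower, had an unadjusted p under 0.05 (12.8% of all genes did, and 4.91% were lower).

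The remaining genes of high count or mixed use showed the same range of behaviour. EEF1A, an elongation factor of translation listed on chromosomes 20 and 3, had 68.7% ± 3.05 and 72.8% ± 3.95 (SD, n = 4) for EEF1A-202, and EIF4G2, a translation initiation factor, had 65.2% ± 5.72 and 69.0% ± 2.12 (SD, n = 4) for EIF4G2-201. CALM, calmodulin, was read at 80.9% to 86.2% from its locus on chromosome 5. EEF2, another elongation factor, was named after its values were seen: EEF2-202 held 44.7% and 40.7% in low-force birds 1 and 3, 82.0% and 80.9% in birds 2 and 4, and 61.9% to 81.0% in high-force birds. Its difference of 6.82 points was -12.6 without low-force birds 1 and 3. Mixed use with a change of leader between birds was found in GNB1, a G protein beta subunit, where GNB1-201 held 27.5% to 76.4%, in UBE2R2, a ubiquitin-conjugating enzyme, at 43.7% to 64.6%, and in TBCD, a tubulin folding cofactor, where TBCD-202 held 31.4% to 71.9%. CIRBP, a cold-inducible RNA-binding protein, had CIRBP-202 at 54.4% ± 3.75 and 49.8% ± 5.45 (SD, n = 4). The 3-transcript gene TCEB3, an elongin subunit, had main shares of 69.2% to 76.5%. APLP2, a relative of the amyloid precursor, had 3 transcripts at 2 loci of chromosome 24, so its share is partly between loci. Its main share was 45.8% to 73.1%. H3-IX, a histone name at 3 loci, had its first 2 loci between 39.6% and 54.6% each.

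In 14 genes the leading transcript differed between the group means. They were ASCC1, CIRBP, GNB1, H2B-I, MCM6, MRPS16, MYOM1, SKTMOD, SLX4, SMARCA5, SMYD1, TBCD, UBE2R2 and YFV, with mean main shares of 41.1% to 58.0%, and of these the groups did not overlap in SMYD1. YFV, a class I histocompatibility name at loci apart and named after its values were seen, had the widest range. Its main locus held 71.5%, 63.2%, 68.7% and 79.9% in high-force and 59.0%, 67.8%, 46.5% and 7.13% in low-force birds, with low bird 4 far below the rest. BTF3, a nascent chain factor also named after its values were seen, had its main locus at 98.2% in high-force bird 1 and at 57.9% to 67.4% in the other 7 birds.

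Levels of the transcripts were compared as background to the shares. Of the 361 member transcripts, 0 passed an adjusted p of 0.05 in the edgeR quasi-likelihood test over 10362 transcripts, as did 0% of all transcripts, and 53 had an unadjusted p under 0.05 (14.7%, against 12.4% of all). Of those 53, a total of 22 were higher (7.58% of all transcripts were) and 31 lower (4.83%) in high-force birds. Levels did not overlap between the groups in 22 member transcripts (6.09%, against 6.16% of all). Of the 235 member Ensembl genes, 0 passed (0% of all genes) and 32 had an unadjusted p under 0.05 (13.6%, against 12.8% of all). Of those 32, 18 were higher (7.92% of all genes were) and 14 lower (4.91%) in high-force birds. DESeq2, run beside it, called 8 of the 235 member genes, against 1.21% of all genes, and 8 of the 361 member transcripts, against 1.15% of all transcripts. By the edgeR FDR of the authors' deposited table, 6 of the 361 member transcripts were under 0.05, against 1.15% of all 8158 transcripts: YFV-201, BCL2L1-201, gga-mir-6643-201, SNX14-202, PSMD12-201 and CRIP2-201. The DESeq2 column of the authors' deposited table had 13 of the 361 member transcripts under 0.05, against 1.86% of all. The log2 fold changes in the edgeR column of that table have the low over the high shear force group, opposite in sign to those given here in 359 of 361 transcripts.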

How the data were processed

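Messenger RNA from the pectoralis muscle of 4 high-force and 4 low-force birds (high and low shear force) was sequenced, per the labels' protocols from TruSeq libraries. The files the authors deposited are expected counts (estimates that need not be whole) of 17954 transcripts and 17108 genes, and a comparison table with log2 fold changes and p-values, per the file headers. The build galGal4 and, without versions or roles, RSEM, TopHat, Bowtie2, DESeq2, edgeR, Cuffdiff and FastQC are named in the submitters' processing notes. The labels name technical repetitions; how these were joined is not given. Totals per bird were 5564905 to 7322205 counts.

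Names were taken from the comparison table and counts from the count table. Shares were computed from the unrounded expected counts. For tests the counts were rounded. Transcripts were filtered with filterByExpr, scaled by TMM and fitted with a robust quasi-likelihood model with an intercept and the group in edgeR 4.0.16 (R 4.3.3). Transcript use was tested with diffSpliceDGE, levels with glmQLFTest over all transcripts or genes, and main shares with an exact permutation test (scipy 1.17.1). Benjamini-Hochberg adjustment covered all features tested, at 0.05. CPM values use the TMM library sizes. All differences are high-force minus low-force birds. Each group has separate birds. The edgeR p-values set the group difference against the variation between these birds, estimated with information shared across transcripts or genes. The permutation p-values set it against the 70 assignments of birds.

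The genes and lists were chosen with earlier results of these data known. Genes named are those past the threshold of transcript use or, with fewer than 15, the 15 smallest p among genes with a mean of 50 or more counts; the 10 highest counts; and, at a mean of 200 or more counts, the 5 nearest to a main share of 50%, the 5 with most transcripts, up to 5 whose leader differs between groups and up to 6 of each of 5 lists. A few genes chosen by this rule are left out of the text. Genes outside the rule are named where a count or a range singles them out, after their values were seen.

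On simulated counts the test of use recovered 22 of 30 genes changed by 1 and 28 of 30 changed by 2 on the log2 scale. There was 1 false call among the unchanged genes of the 175 tested. Counts were drawn for each transcript separately, with no division of reads between transcripts and no difference of a bird shared across genes. The recovery in the real counts, which have both, was not tested. The test of levels recovered 50 and 88 of 100 among 10137 transcripts, with 10 false calls. Alternatives were limma 3.58.1, DESeq2 1.42.0, RLE scaling, other filters, the replicate block and each bird left out.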

Additional observations from a re-analysis of the deposited data

Results flagged for a closer look

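In each named gene the main share of 4 birds per group was checked for a bird far from the rest, over 100 groups, of which 4 were flagged; chance flags about 1 in 20 groups. MYH3-201, from an embryonic myosin heavy chain name at 2 loci of chromosome 18, was 84.7% in low-force bird 2 against 98.1% to 98.5% in the other 3 low birds, and 75.9% in high-force bird 4. MYOM1-202 was 63.7% in high-force bird 2 against 43.8% to 46.0% in the other 3. SKTMOD-203 was 64.6% in low-force bird 3 against 52.8% to 53.8%. RBM39-201 was 67.1% in low-force bird 2 against 80.8% to 83.0%.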

How the results depend on the processing

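The count of genes with changed transcript use was 0 in edgeR, 1 with limma's diffSplice (BCL2L1), 1 with DESeq2 (SNX14), 2 at an adjusted p of 0.1, 2 among genes of 1 locus only, and 0 to 8 when each bird was left out in turn, the counts above 0 being 2 when high-force bird 1 was out, 8 when low-force bird 2 was and 6 when low-force bird 4 was. Without low-force birds 1 and 3 together, an alternative chosen after seeing the data like the one on overlapping loci, it was 0. Transcripts with a changed share numbered 0 in edgeR, 2 with limma, 1 with DESeq2 and 0 to 2 with each bird left out (2 without low-force bird 4). Levels called 0 in edgeR but 8 member transcripts and 8 member genes with DESeq2, and 0 to 1 member genes with each bird left out (1 without high-force bird 1). Cutoff, filter and sample number differ by construction in these settings, and the cause of the differences between tools was not tested. The median main share over the 175 genes without a tie was 71.1%, and 72.1% at a mean of 100 or more counts. With the replicate block in edgeR, the count was 0 genes, with a smallest adjusted p of 0.0648 and 25 at an unadjusted p under 0.05. In the scaled log2 ratios of main shares, same-numbered birds had correlations of their deviations from the group means of -0.007, 0.003, 0.200 and 0.273. Birds of different numbers had -0.218 to 0.182, so 2 of the same-number values were the highest. The labels do not say that the numbers pair birds, and the main fit did not pair them. Whether they do cannot be told from these values. Of the other values, 74 stayed at the main count of 0 or, for the median share, within the spread. They include the counts of the permutation test of main shares with birds left out or paired by number. In these settings the smallest p that test can give is above 0.05 (0.125 with pairs), so its counts of 0 were fixed in advance. A further 544 differences of single genes were counted as stable, having moved by less than the spread between birds or kept their sign. In each of the 50 named genes these include the mean difference over same-numbered birds, which equals the main difference by construction. Among the differences counted as stable, those of SPARC, SNX14, SLU7 and PPP3CB kept their sign but moved by more than the spread without low-force birds 1 and 3. The differences of TPM1, PHKB, SRL, CAMK2G, LAMC1 and COL5A2 moved by more and turned sign without low-force birds 1 and 3, while those of MYL1, MBNL2, CACNA2D1 and ATP2B1 turned sign within that spread. Depth limits the genes with the fewest counts most.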
